A study of Mus musculus with 26 samples.

Results

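R6/1 striatum at 4 weeks was compared with wild-type (WT) striatum of the same age, with 3 libraries in each group and 6 of the 26 libraries of the series. In R6/1 mice a transgene supplies exon 1 of human huntingtin with an expanded CAG repeat, and the animals keep both copies of their own huntingtin gene. WT mice carry no transgene. Other groups used here are R6/1 and WT striatum at 8 weeks, and CHL2 and WT striatum at 1 year, with 3 libraries each. CHL2 is a knock-in strain whose own huntingtin gene holds the expanded repeat. The sources used here do not give sex, strain background, litter or pooling of animals. Per group and gene, the authors' deposited table holds 1 pooled FPKM (fragments per kilobase of transcript, scaled to the library's mapped fragments), so no spread between libraries can be shown, and whether the libraries came from separate animals is not stated. Of 14539 rows, 41 microRNA and small nucleolar RNA rows and 254 rows with a mean FPKM below 0.5 were left out, which leaves 14244 genes. Change is log2 of (FPKM + 1) in R6/1 over (FPKM + 1) in WT, and the added 1 understates the change of weakly expressed genes.

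Most neurons of the striatum are GABAergic spiny projection neurons. Those of the direct pathway carry dopamine D1 receptors and substance P, and those of the indirect pathway carry dopamine D2 receptors, an adenosine receptor and enkephalin. Indirect-pathway neurons are the earlier affected type in Huntington's disease, and R6/1 mice develop motor signs only months after birth. Elk-1, the transcription factor named in the study's title, belongs to the ternary complex factors. These bind DNA together with serum response factor (SRF) at CArG boxes, elements found at many immediate-early genes, which neurons switch on within minutes of synaptic activity.

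Few genes were called. A gene counts as called where the q-value in the authors' deposited table was below 0.05, and "rose" or "fell" is written only of such genes. Among the genes compared 66 were called, which is 0.463%: 40 rose in R6/1 (0.281%) and 26 fell (0.183%). A further pair was called under the FPKM minimum, S100a5 at 0 in R6/1 and 0.763 in WT, and Col6a5 at 0.206 in R6/1 and 0.565 in WT. Of the called genes, 48 stood at the lowest q of the authors' deposited table, 0.0145, and none was above 0.0428. An unadjusted p below 0.05 was deposited for 756 genes (5.31%). Over all genes compared the median change was 0.001, the quartiles were -0.07 and 0.07, and 7191 genes (50.5%) had the higher value in R6/1. The smallest change of a called gene was 0.36 in size. A change of more than 0.5 in either direction was seen in 68 genes, and 34 of these were called. At the edge of the FPKM minimum, C130060C02Rik entered with 0.522 in R6/1 and 0.480 in WT, and Rhbdf2 stayed out with 0.512 in R6/1 and 0.487 in WT.

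**Figure D1:**
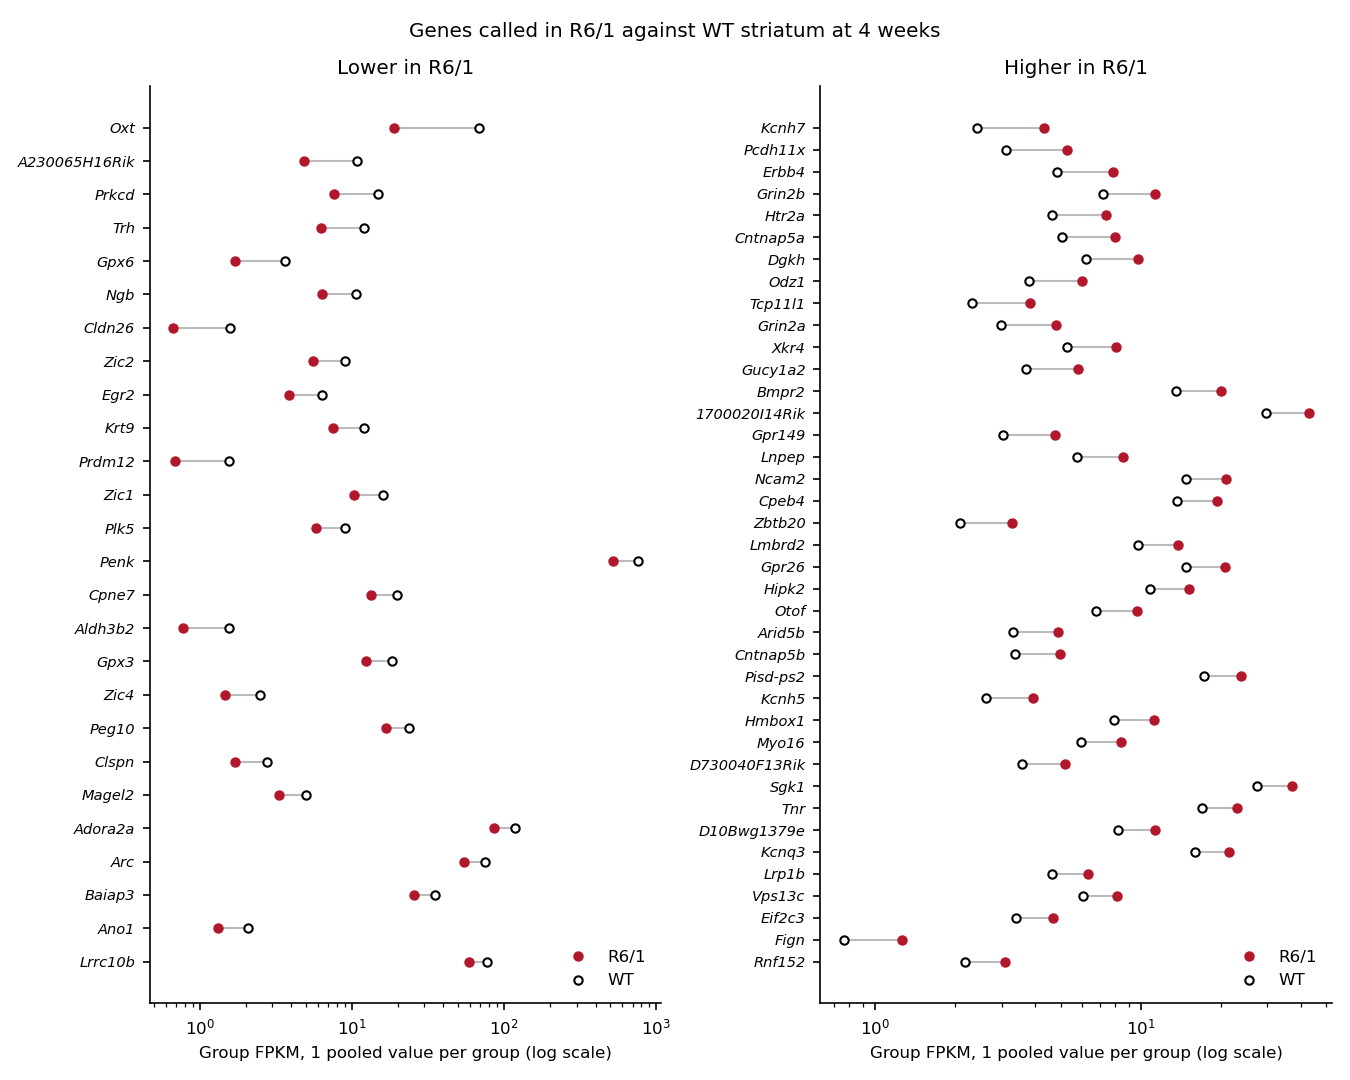
Group FPKM on a log scale for genes called at 4 weeks, R6/1 (filled) and WT (open), 1 pooled value per group and no error bar. Oxt has the widest gap, and Penk, at 524 in R6/1 and 761 in WT, is the most abundant of the called genes.

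The labelled tissue carried its defining markers in both pools. Drd1a, the D1 receptor gene, stood at 52.9 FPKM in R6/1 and 59.2 in WT, and Drd2, the D2 receptor gene, at 68.6 in R6/1 and 83.3 in WT. Ppp1r1b, which encodes the projection-neuron phosphoprotein DARPP-32, stood at 656 in R6/1 and 848 in WT. The row for mouse Htt itself read 19.7 in R6/1 and 18.1 in WT and was not called. The sources used here do not say whether reads of the human exon enter that row. Cortical excitatory genes were also present, with Slc17a7, a vesicular glutamate transporter, at 202 in R6/1 and 210 in WT.

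Genes of spiny projection neurons stood lower in R6/1 as a group, although few were called. Of 46 genes shared by both pathways, 41 had the lower value in R6/1, against 49.5% of all genes compared, and the median change was -0.205. Lrrc10b, a leucine-rich repeat gene, was the single one called and fell to 58.6 FPKM in R6/1, against 77.3 in WT (change -0.40, q = 0.0428 in the authors' deposited table). By the authors' deposited table, 16 of the 46 had an unadjusted p below 0.05 with the lower value in R6/1, and none had the higher. Among all genes compared these numbers were 294 lower and 462 higher. Scn4b, a sodium channel beta subunit, stood at 203 in R6/1 and 266 in WT (change -0.39). Coch, which encodes cochlin, stood at 20.97 in R6/1 and 27.95 in WT (change -0.40, q = 0.0661 in the authors' deposited table). Pde10a, the phosphodiesterase of these neurons, stood at 131 in R6/1 and 152 in WT (change -0.21). In bulk tissue, fewer cells of a type and less RNA per cell cannot be told apart.

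Both called genes of the pathway markers belong to the indirect pathway. Penk, the enkephalin precursor, fell to 524 FPKM in R6/1, against 761 in WT (change -0.54, q = 0.0428 in the authors' deposited table). The adenosine receptor gene Adora2a fell to 85.9 in R6/1, against 119 in WT (change -0.46, q = 0.0145 in the authors' deposited table). Gpr6, an orphan receptor of the same neurons, stood at 23.0 in R6/1 and 30.1 in WT (change -0.37), and Drd2 had a change of -0.28. Of 12 indirect-pathway genes, 10 had the lower value in R6/1, with a median change of -0.199. Of 12 direct-pathway genes, 8 had the lower value, with a median of -0.048, and none was called by the authors' test. An unadjusted p below 0.05 in the authors' deposited table was seen for 1 of the 12 in each direction. Drd1a had a change of -0.16, Pdyn, the dynorphin precursor, stood at 46.8 in R6/1 and 50.6 in WT (change -0.11), and Tac1, the substance P precursor, at 165 in R6/1 and 156 in WT (change 0.08). The difference between the pathways was not tested, since no value per library is held.

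Marker lists of astrocytes, oligodendrocytes and microglia had medians nearer 0 than the shared projection-neuron and indirect-pathway lists. The direct-pathway median, -0.048, was nearer 0 than that of the astrocyte genes. Astrocyte genes summed to 3593 FPKM in R6/1 and 3863 in WT, with 15 of 20 lower and a median change of -0.074. Oligodendrocyte and myelin genes summed to 9461 in R6/1 and 9309 in WT, with 10 of 24 lower and a median of 0.018. Microglial and complement genes summed to 432 in R6/1 and 456 in WT, with 15 of 19 lower and a median of -0.044. None of the genes of these lists was called by the authors' test, and an unadjusted p below 0.05 was seen for 1 astrocyte and 1 microglial gene in the authors' deposited table. Gfap, the astrocyte filament gene that rises in gliosis, stood at 69.0 in R6/1 and 64.9 in WT. The projection-neuron genes shared by both pathways summed to 5870 in R6/1 and 6868 in WT. The part of these marker levels in the projection-neuron result was not tested.

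Activity-regulated genes also stood lower. Of 23 immediate-early transcription factor genes, 19 had the lower value in R6/1, with a median change of -0.197, and 9 had an unadjusted p below 0.05 in the authors' deposited table, all lower. Egr2, a zinc-finger factor, fell to 3.83 FPKM in R6/1, against 6.36 in WT (change -0.61, q = 0.0145 in the authors' deposited table). Egr4 was the uncalled gene of lowest p on the lower side, at 21.1 in R6/1 and 28.5 in WT (change -0.42, q = 0.0512 in the authors' deposited table). Egr1 stood at 101 in R6/1 and 129 in WT (change -0.35), Npas4 at 9.02 in R6/1 and 12.1 in WT (change -0.38), and Fos at 13.8 in R6/1 and 16.3 in WT (change -0.23). Among 28 effector genes that activity induces, 25 had the lower value, with a median of -0.110. Arc, whose product moves AMPA receptors from the synapse, was the single one called and fell to 54.6 in R6/1, against 74.96 in WT (change -0.45, q = 0.0428 in the authors' deposited table). Dusp14, a dual-specificity phosphatase gene, stood at 23.0 in R6/1 and 30.1 in WT (change -0.37), and the neuropeptide precursor gene Vgf at 97.9 in R6/1 and 125 in WT (change -0.35).

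The RNA of the Elk and serum response factors themselves was not called in either direction. Elk1 stood at 21.2 FPKM in R6/1 and 20.3 in WT (change 0.06), and the related Elk4 at 5.51 in R6/1 and 4.55 in WT (change 0.23). Srf stood at 18.2 in R6/1 and 20.4 in WT (change -0.16). Of the 12 genes of the list of ELK factors, SRF, its cofactors and upstream kinases, 5 had the lower value, the median change was 0.011, or -0.031 without overlapping rows, and none was called by the authors' test. An unadjusted p below 0.05 in the authors' deposited table was seen for 1 of them in each direction, Elk4 upward and the kinase gene Rps6ka4 downward. Rps6ka4 stood at 17.9 in R6/1 and 21.6 in WT (change -0.26).

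Promoters are shown because SRF and its partners are textbook regulators of immediate-early genes and Egr2 is the called gene of the immediate-early transcription factor list. The promoter of Arc, called as well, is not shown here. The windows hold the 250 bases before a RefSeq start site (GRCm38.p6), each on the strand of its gene and written 5′ to 3′, with CArG boxes in capitals. The Egr2 window lies at chr10:67537620-67537869 on the + strand and is 1 of 5 Egr2 windows, of which 4 hold a CArG box. The Srf window lies at chr17:46556163-46556412 on the - strand. The Dusp5 window, of a MAP kinase phosphatase gene, lies at chr19:53528895-53529144 on the + strand. Srf and Dusp5 were chosen after their values were seen, as genes of the activity lists whose windows hold the motif.
Egr2: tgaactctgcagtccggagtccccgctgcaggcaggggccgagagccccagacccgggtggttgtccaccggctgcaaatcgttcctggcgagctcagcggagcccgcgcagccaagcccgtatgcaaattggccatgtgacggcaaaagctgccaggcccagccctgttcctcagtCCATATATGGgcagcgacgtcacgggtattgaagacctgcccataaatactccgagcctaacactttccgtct
Srf: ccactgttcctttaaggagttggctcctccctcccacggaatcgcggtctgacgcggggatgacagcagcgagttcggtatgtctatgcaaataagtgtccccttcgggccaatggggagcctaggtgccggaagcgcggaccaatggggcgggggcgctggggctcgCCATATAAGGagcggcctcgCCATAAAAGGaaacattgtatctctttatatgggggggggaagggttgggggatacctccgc
Dusp5: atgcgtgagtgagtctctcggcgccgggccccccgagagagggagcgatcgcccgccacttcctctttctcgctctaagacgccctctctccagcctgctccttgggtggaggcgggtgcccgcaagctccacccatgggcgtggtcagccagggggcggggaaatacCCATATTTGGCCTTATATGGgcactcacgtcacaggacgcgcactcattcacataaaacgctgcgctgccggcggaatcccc
The Egr2 window holds 1 box, and the Srf and Dusp5 windows hold a pair each. Of these 3 genes Egr2 was called. Dusp5 stood at 3.33 FPKM in R6/1 and 3.67 in WT (change -0.11).

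The CArG box was searched on both strands and was found in 482 of 32851 windows of this length (1.47%). Of the genes compared, 11226 had a window and 153 (1.36%) held the motif in at least 1 of them. Of the 19 immediate-early transcription factor genes with a window 2 held it (10.5%), Egr2 and Srf itself, which was not called. Of the 21 effector genes 1 held it (4.76%), Dusp5, which was not called either. Among called genes it was found in 1 of 18 that fell and 1 of 25 that rose. The cAMP response element TGACGTCA, which reads alike on both strands and cannot overlap a CArG box, was found in 508 windows (1.55%) and in 342 of the genes compared (3.05%). It was found in 6 of the 21 effector genes (28.6%) and in 1 of the 19 immediate-early factor genes (5.26%). Neither motif was found in the windows of 36 projection-neuron genes. At the shares over all genes, 1.36% and 3.05%, few or none of so small a set would hold them, so no contrast with the other lists is drawn.

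**Figure D2:**
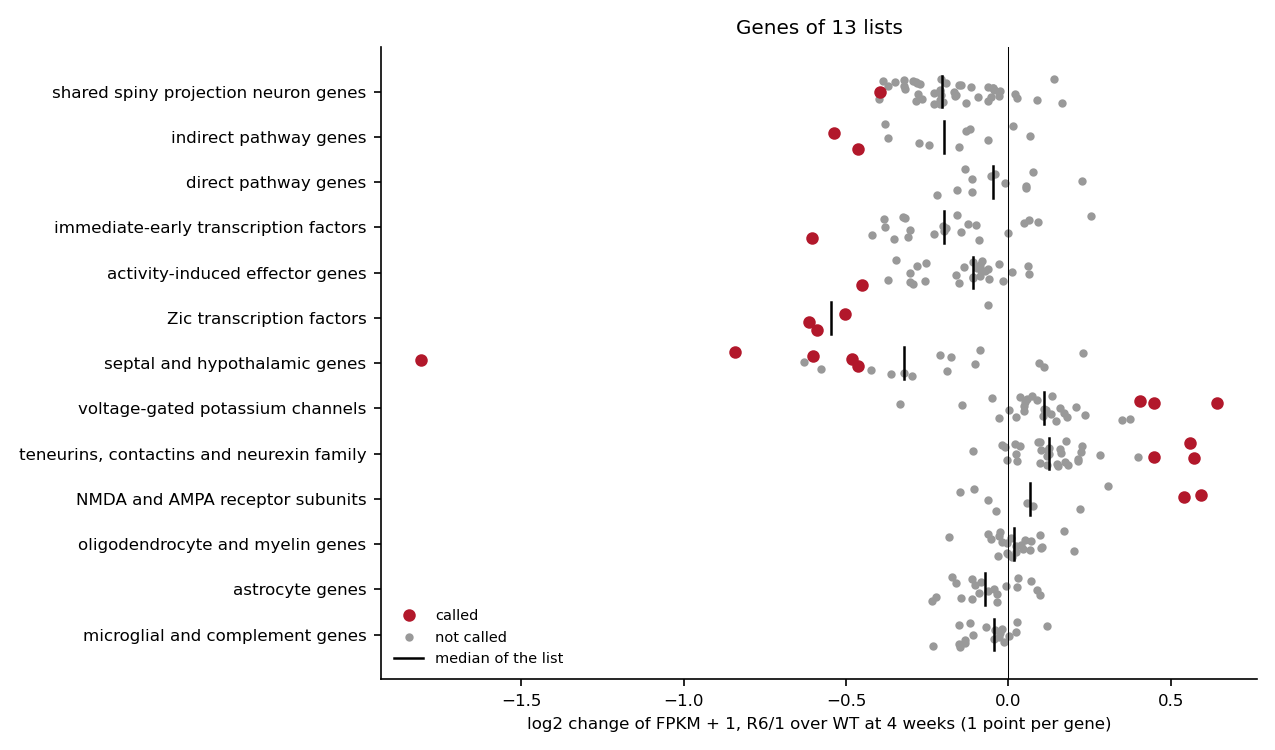
Change at 4 weeks of each gene in 13 lists, with called genes in red and the list's median as a black bar. The projection-neuron and immediate-early lists lie mostly left of 0 with medians of -0.205 and -0.197, and the myelin list is centred near 0 with a median of 0.018.

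Genes known from the septum and hypothalamus, and the Zic factors, were among those that fell. Oxt, the oxytocin precursor, had the largest fall of all called genes, and stood at 18.9 FPKM in R6/1, against 68.8 in WT (change -1.81, q = 0.0145 in the authors' deposited table). Trh, the thyrotropin-releasing hormone precursor, fell to 6.25 in R6/1, against 11.99 in WT (change -0.84). Prdm12, a zinc-finger regulator, fell to 0.682 in R6/1, against 1.55 in WT (change -0.60). The imprinted genes Magel2 and Peg10, both active in hypothalamus, fell as well: Magel2 to 3.33 in R6/1, against 4.97 in WT, and Peg10 to 16.8 in R6/1, against 23.9 in WT. Otp, a regulator of hypothalamic neuropeptide neurons, stood at 0.400 in R6/1 and 1.17 in WT (change -0.63) and was not called. Of 19 septal and hypothalamic genes, 5 fell, against 0.183% of all genes compared. The lower value in R6/1 was seen for 16, against 49.5% of all genes compared. The median change was -0.321, and -0.255 at an FPKM minimum of 2. Like the other lists, this one was chosen with earlier results of these data known, so its counts and median are a description. The list summed to 455 FPKM in R6/1 and 577 in WT, with 20 of its 28 genes listed in the table and none of those at 0. Most of each sum was Sst, which also stands in the list of striatal interneuron genes.

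Zic proteins are zinc-finger factors of the dorsal midline and of septal and thalamic neurons. Zic1 fell to 10.4 FPKM in R6/1, against 16.1 in WT (change -0.59), Zic2 to 5.51 in R6/1, against 8.96 in WT (change -0.61), and Zic4 to 1.46 in R6/1, against 2.49 in WT (change -0.50). Over the 4 listed members the median change was -0.55, and Zic5 stood at 0.692 in R6/1 and 0.767 in WT. Zic1 and Zic4 are neighbours on mm9 chromosome 9, listed at 91255182 to 91260637 and 91263809 to 91284186. Prkcd, a protein kinase C gene strong in thalamus, fell to 7.61 in R6/1, against 14.8 in WT (change -0.88). It stands in the list of 16 thalamic and pallidal genes with Zic1, and no other member was called. That list had 9 genes with the higher value, a median of 0.086, which was -0.13 at an FPKM minimum of 2, and a sum of 101 FPKM in R6/1 and 119 in WT. Every called gene of this and the preceding paragraph stood at the lowest q of the authors' deposited table, 0.0145. Most of these RNAs are known from regions that border the striatum, and how the tissue was cut in each group was not tested.

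The other genes that fell have varied roles. Gpx6 and Gpx3 encode glutathione peroxidases. Gpx6 fell to 1.70 FPKM in R6/1, against 3.63 in WT (change -0.78), and Gpx3 to 12.4 in R6/1, against 18.3 in WT (change -0.52, q = 0.0260 in the authors' deposited table). They were the called members among 28 glutathione and antioxidant genes, while 0.183% of all genes compared fell. The lower value was seen for 23 of the 28, against 49.5% of all genes compared. Their median transcript length was 2384.5 bases, against 3424 over all genes compared. The median change of the list was -0.077, or -0.018 after the median of genes of like transcript length was subtracted. Ngb, which encodes neuroglobin, fell to 6.31 in R6/1, against 10.6 in WT (change -0.66). Plk5, a polo-like kinase gene, fell to 5.79 in R6/1, against 9.06 in WT (change -0.57), and Clspn, which encodes the replication checkpoint adaptor claspin, to 1.69 in R6/1, against 2.75 in WT (change -0.48). Krt9, a keratin gene, fell to 7.55 in R6/1, against 11.99 in WT (change -0.60). Cpne7, a copine gene, fell to 13.3 in R6/1, against 19.7 in WT (change -0.53), and Ano1, a calcium-activated chloride channel gene, to 1.32 in R6/1, against 2.07 in WT (change -0.41). Baiap3, which acts in dense-core vesicle traffic, fell to 25.7 in R6/1, against 35.0 in WT (change -0.43). Its listed position overlaps that of another row, as for 12.9% of the genes compared, so its reads may be shared. The remaining called genes were A230065H16Rik at 4.83 in R6/1 and 10.9 in WT, Cldn26, a claudin gene, at 0.664 in R6/1 and 1.58 in WT, and Aldh3b2, an aldehyde dehydrogenase gene, at 0.771 in R6/1 and 1.55 in WT.

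Genes that rose included receptors, channels and adhesion molecules. Among glutamate receptors, Grin2b rose to 11.3 FPKM in R6/1, against 7.18 in WT (change 0.59), and Grin2a to 4.80 in R6/1, against 2.99 in WT (change 0.54). Both encode NMDA receptor subunits that set the channel's kinetics. Grin1, the obligatory subunit, stood at 176 in R6/1 and 184 in WT (change -0.06) and was not called. Of 10 NMDA and AMPA subunit genes, 2 rose, against 0.281% of all genes compared. The higher value was seen for 6 of the 10, near the 50.5% of all genes compared. Their median transcript length was 5493.5 bases, against 3424 over all genes compared. Htr2a, a serotonin receptor gene, rose to 7.42 in R6/1, against 4.65 in WT (change 0.58). The orphan receptor genes Gpr149 and Gpr26 rose to 4.77 in R6/1, against 3.04 in WT, and to 20.7 in R6/1, against 14.8 in WT.

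Potassium channel genes of the ether-a-go-go and KCNQ families rose too. Kcnh7 had the largest rise of all called genes, to 4.33 FPKM in R6/1, against 2.42 in WT (change 0.64). Kcnh5 rose to 3.94 in R6/1, against 2.62 in WT (change 0.45), and Kcnq3, a subunit of the M-current channel, to 21.6 in R6/1, against 16.0 in WT (change 0.40, q = 0.0260 in the authors' deposited table). Of 30 voltage-gated potassium channel genes, 26 had the higher value in R6/1, against 50.5% of all genes compared, with a median change of 0.110. Their median transcript length was 4919 bases, against 3424 over all genes compared. Kcnh3 of the same family stood at 36.5 in R6/1 and 40.5 in WT (change -0.14).

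Several cell-surface molecules that join axons and synapses rose. Odz1, which encodes a teneurin, rose to 6.04 FPKM in R6/1, against 3.78 in WT (change 0.56). The contactin-associated genes Cntnap5a and Cntnap5b rose to 8.01 in R6/1, against 5.07 in WT, and to 4.96 in R6/1, against 3.37 in WT, while Cntnap5c stood at 2.56 in R6/1 and 1.70 in WT and was not called. Pcdh11x, a protocadherin gene, rose to 5.28 in R6/1, against 3.12 in WT (change 0.61), and Erbb4, the neuregulin receptor gene, to 7.84 in R6/1, against 4.85 in WT (change 0.60). Ncam2, a neural cell adhesion gene, rose to 20.97 in R6/1, against 14.75 in WT, and Tnr, which encodes tenascin-R of the perineuronal net, to 23.1 in R6/1, against 17.0 in WT. Lrp1b, a lipoprotein receptor relative, rose to 6.35 in R6/1, against 4.62 in WT. Of 33 teneurin, contactin and neurexin family genes 29 had the higher value (median 0.124), and of 27 protocadherins and cadherins 23 had it (median 0.155). Of 41 axon guidance genes 29 had it, and none was called by the authors' test, with 12 at an unadjusted p below 0.05 in the authors' deposited table, all higher. Of all genes compared, 50.5% had the higher value, and 462 of 14244 had such a p with the higher value. These lists hold long transcripts, with median lengths of 6052, 5647 and 6307 bases in the order given. In groups 9 and 10 of 10 by length, described below, 78.4% and 88.9% of genes had the higher value.

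Signalling enzymes and regulators of RNA also rose. Sgk1, a stress-responsive and glucocorticoid-responsive kinase gene, was among the most abundant, at 37.1 FPKM in R6/1 and 27.3 in WT (change 0.43, q = 0.0370 in the authors' deposited table). The diacylglycerol kinase gene Dgkh rose to 9.76 in R6/1, against 6.25 in WT, and Gucy1a2, a subunit gene of the nitric oxide receptor, to 5.82 in R6/1, against 3.70 in WT. Bmpr2, a receptor for bone morphogenetic proteins, rose to 20.04 in R6/1, against 13.54 in WT. The kinase gene Hipk2 rose to 15.2 in R6/1, against 10.8 in WT. Lnpep encodes an aminopeptidase that cleaves oxytocin and other peptides and rose to 8.59 in R6/1, against 5.78 in WT. Cpeb4, which controls polyadenylation of mRNAs, rose to 19.4 in R6/1, against 13.7 in WT, and Eif2c3, which encodes an Argonaute protein, to 4.67 in R6/1, against 3.38 in WT. The transcription regulators Zbtb20, Arid5b and Hmbox1 rose with changes of 0.47, 0.45 and 0.45. Otof, a calcium sensor of vesicle release, Myo16, an unconventional myosin, Vps13c, a lipid transfer protein, Fign, a microtubule-severing enzyme, and Rnf152, a ubiquitin ligase, rose with changes of 0.36 to 0.45. Lmbrd2, Xkr4 and Tcp11l1 rose with changes of 0.46, 0.54 and 0.54. Called genes listed with no role were 1700020I14Rik, D10Bwg1379e, D730040F13Rik and the pseudogene Pisd-ps2, whose reads may be shared with its parent gene.

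Across all genes the change followed transcript length. Transcript length is that of the longest transcript of a gene in the GENCODE M21 annotation, found for 14087 of the 14244 genes. Over these genes Spearman's rho of change with length was 0.48, given as a description since genes are not independent. Genes were split by length into 10 groups of equal number. In the group of shortest genes, with a median length of 1047 bases, the median change was -0.093 and 23.2% of genes had the higher value in R6/1. In the group of longest genes, with a median length of 8383 bases, the median change was 0.118 and 88.9% had the higher value. The median was higher in each group than in the next shorter one. In 4 groups of genes by mean FPKM, rho stood at 0.27, 0.50, 0.56 and 0.58 in order of rising level. Change also followed the listed genomic span (rho 0.39) and, downward, the GC content of the transcript (rho -0.35). Within the 10 length groups, rho with span was 0.10 to 0.24 and rho with GC content was -0.37 to -0.13.

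**Figure D3:**
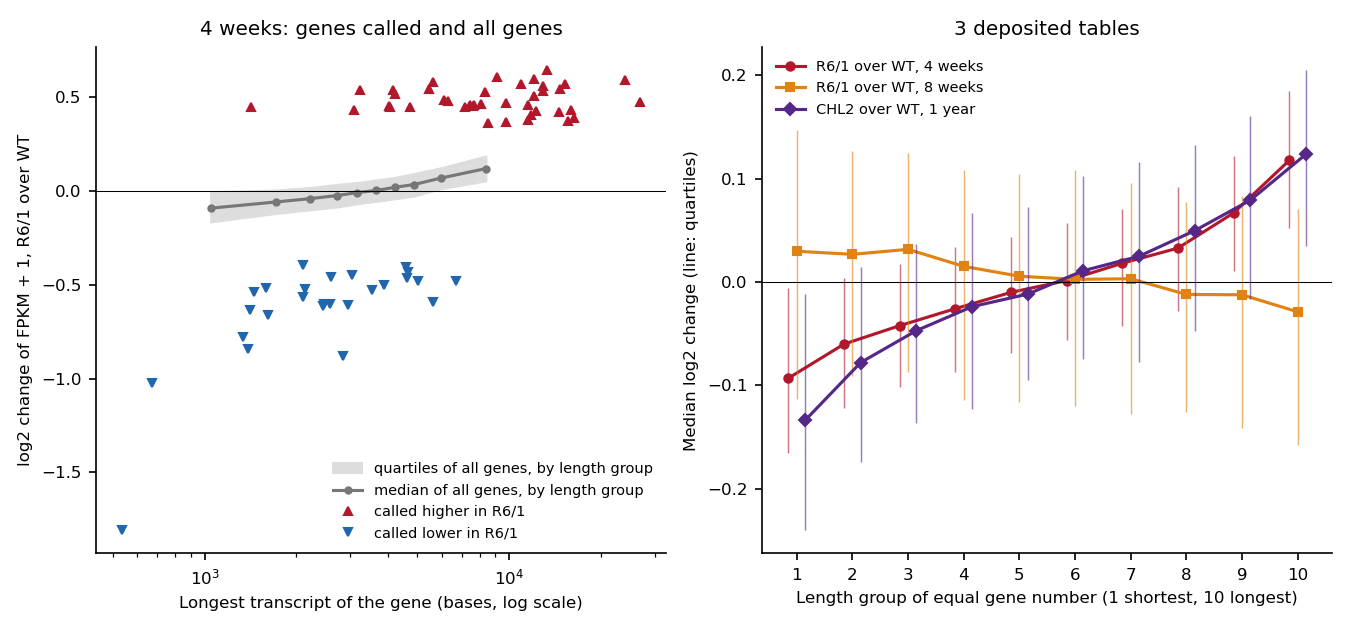
Left, change against transcript length (log scale) for genes called higher and lower at 4 weeks, over the median and quartiles of all genes by length group. Right, median change in 10 length groups with quartiles in the 4-week, 8-week and 1-year tables, where the 4-week medians run from -0.093 to 0.118 and the 8-week medians from 0.030 to -0.029.

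The genes that rose sat at the long end. Their median transcript length was 9415.5 bases, against 3424 over all genes compared, and 28 of the 40 lay in the group of longest genes, where 1.99% of 1409 genes rose and none fell. Their median listed span was 167050 bases and their median GC content 43.2%, against 26045.5 bases and 49.9% over all genes compared. Grin2b has a longest transcript of 24060 bases and Kcnh7 of 13321 bases. The genes that rose with a transcript shorter than the median of all genes compared were Pisd-ps2 at 1424 bases, Sgk1 at 3096 and Gucy1a2 at 3233. The genes that fell had a median length of 2525.5 bases, a median span of 7478.5 bases and a median GC content of 56.7%.

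The median change of genes of like length, in 20 groups of equal gene number, was then subtracted. The median change of the genes that rose was 0.40 after it, against 0.46 before, and that of the genes that fell was -0.54, against -0.55 before. Grin2b had a change of 0.46 after the subtraction and Kcnh7 of 0.51, while Gucy1a2 kept 0.54 and Htr2a 0.52. The smallest such values of genes that rose were 0.23 for both Rnf152 and Fign. Among all genes with a length, 11584 of 14087 had the same sign before and after. The deposited q-values know no such adjustment, so how many genes would be called after it was not tested.

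Lists divided by how they responded to this subtraction. No list was adjusted for GC content of the transcript, so its part in the list medians was not tested. The projection-neuron median was -0.205 before and after, the indirect-pathway median was -0.231 after, and the Zic median -0.545 after. The immediate-early factors then had a median of -0.177, the effectors of -0.104, and the septal and hypothalamic genes of -0.242. Where genes of like genomic span were subtracted instead, these medians were -0.133, -0.073 and -0.235. Housekeeping lists with short transcripts moved toward 0. Among cytosolic ribosomal protein genes 64 of 76 had the lower value, against 49.5% of all genes compared. Their median was -0.120 before and -0.043 after. Nuclear oxidative phosphorylation genes, 76 of 89 lower, had a median of -0.092 before and -0.009 after. Proteasome genes, 32 of 37 lower, had a median of -0.059 before and 0.005 after. The median transcript lengths of these lists, 1076.5, 1141 and 1883 bases in the order given, lie in groups 1, 1 and 2 of 10 by length. In groups 1 and 2 the higher value was seen for 23.2% and 26.2% of genes. With genomic span in place of length, the medians of these housekeeping lists were -0.049, -0.045 and -0.039 in the order given. None of the genes of these lists was called by the authors' test. An unadjusted p below 0.05 was seen for 2 ribosomal protein genes and 1 oxidative phosphorylation gene in the authors' deposited table, all lower.

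Lists of long genes had smaller upward medians after it. Chromatin modifying enzymes, 35 of 48 higher, had a median of 0.094 before and 0.018 after, or 0.062 where genes of like genomic span were subtracted. Their median transcript length was 6979 bases. The higher value was seen for 50.5% of all genes compared and for 88.9% of the group of longest genes. Axon guidance genes had 0.088 before and 0.018 after, protocadherins and cadherins 0.155 before and 0.064 after, and NMDA and AMPA subunits 0.067 before and 0.017 after, or -0.018 with genomic span. Voltage-gated potassium channels had 0.110 before and 0.075 after, or 0.093 with span, and the teneurin, contactin and neurexin family 0.124 before and 0.086 after, or 0.065 with span. Mll2, a histone methyltransferase gene with a longest transcript of 19823 bases, stood at 13.4 FPKM in R6/1 and 10.8 in WT, with a change of 0.29 before and 0.16 after. The row of mouse Htt, at 13215 bases, had 0.12 before and -0.02 after.

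**Figure D4:**
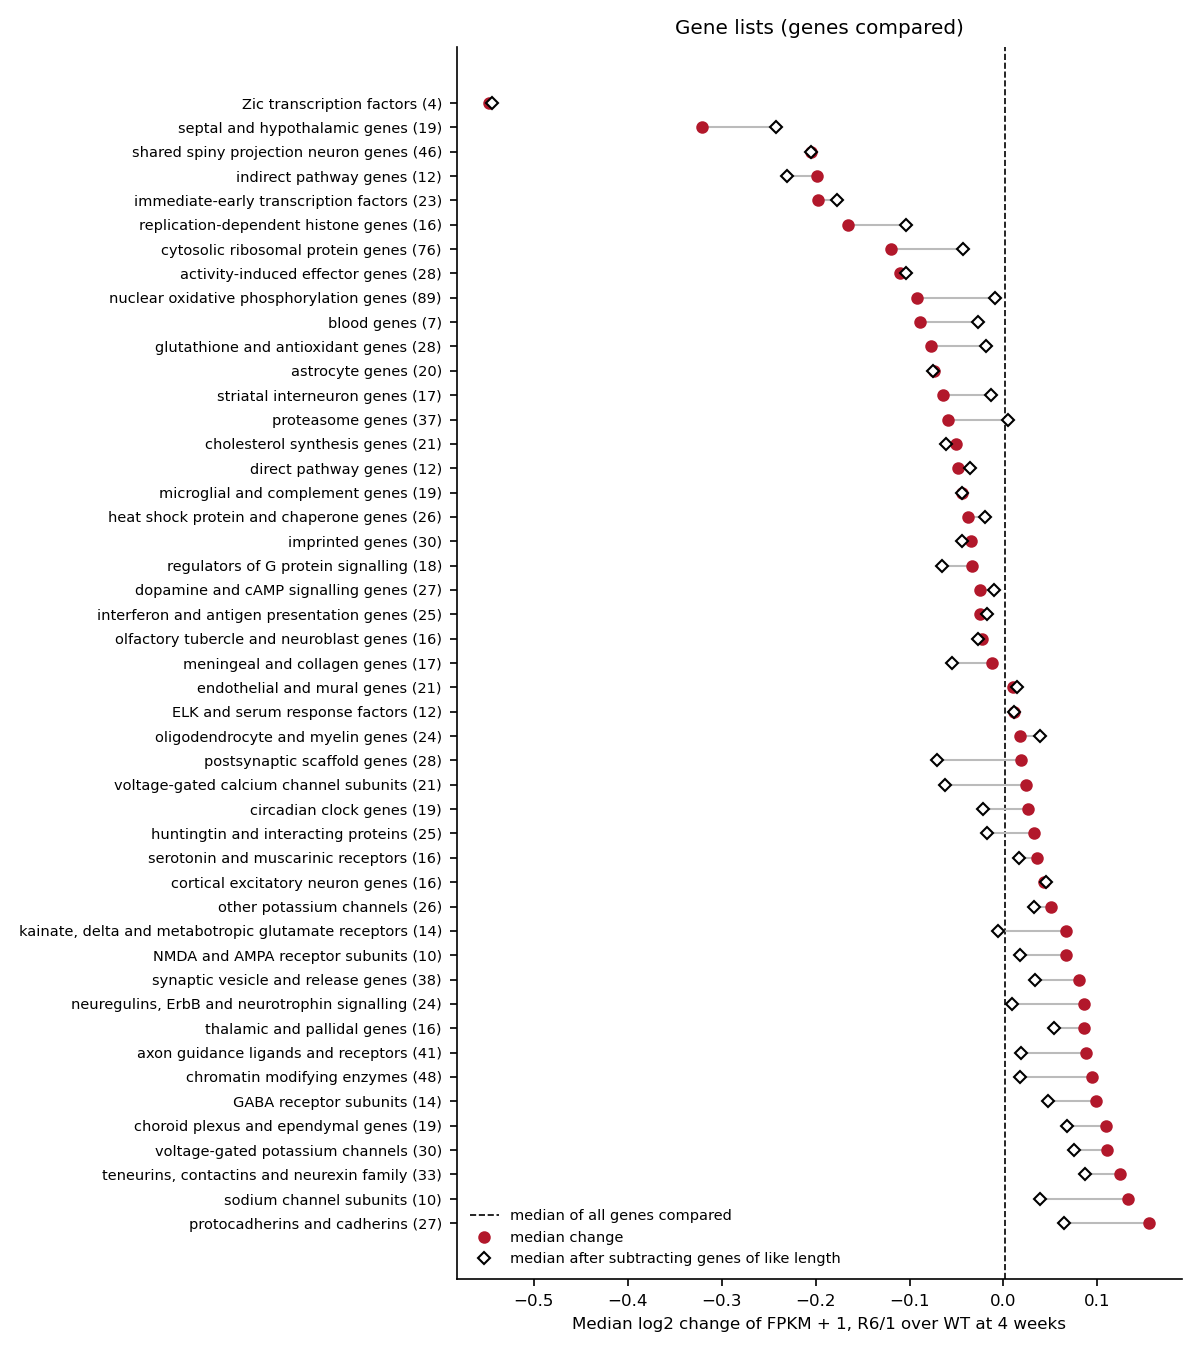
Median change at 4 weeks of 47 gene lists before (filled) and after (open) subtracting the median change of genes of like transcript length, with the median of all genes compared, 0.001, as a dashed line. The projection-neuron list stays at -0.205, while the ribosomal protein list goes to -0.043 and the axon guidance list to 0.018.

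The same measure was then taken in other pools. Spearman's rho of change with length was -0.11 for R6/1 over WT at 8 weeks and 0.40 for CHL2 over WT at 1 year. Setting the 4-week pools against WT at 8 weeks over 13836 genes, rho was -0.18 for R6/1 and -0.44 for WT, and against R6/1 at 8 weeks it was -0.03 for R6/1 and -0.27 for WT. Against CHL2 at 1 year it was 0.15 for R6/1 and -0.11 for WT, and against WT at 1 year 0.43 for R6/1 and 0.20 for WT. The tables were normalized separately, and age differs in these ratios. The part of library preparation or sequencing in this trend was not tested.

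The genes called at 4 weeks were then read in the tables of other libraries, R6/1 at 8 weeks and CHL2 at 1 year. At 8 weeks 0.801% of 14105 genes rose and 5.35% fell, and at 1 year 1.68% of 14296 rose and 1.98% fell. Of the 26 genes that fell at 4 weeks, 25 were compared at 8 weeks, where 10 fell and 1 rose. At 1 year 9 fell and 10 rose. The genes that fell in all 3 tables were 9: Adora2a, Arc, Clspn, Egr2, Gpx6, Krt9, Lrrc10b, Penk and Plk5. They hold the projection-neuron, indirect-pathway and activity genes called at 4 weeks.

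For these 9 genes the 8-week values lay further from WT than the 4-week values. Penk had a change of -0.54 at 4 weeks, -1.85 at 8 weeks and -1.23 in CHL2 at 1 year. Adora2a had -0.46, -1.55 and -1.06, and Egr2 had -0.61, -2.31 and -0.55 in the same order. Gpx6 stood at 0.199 FPKM in R6/1 and 3.14 in WT at 8 weeks, and at 1.13 in CHL2 and 5.21 in WT at 1 year. The whole projection-neuron list had a median of -0.205 at 4 weeks, -0.913 at 8 weeks, where 45 of 46 fell, and -0.476 in CHL2 at 1 year, where 28 fell. Indirect-pathway genes had -0.199, -1.049 and -0.605, and direct-pathway genes -0.048, -0.162 and -0.208. The differences between ages and models were not tested.

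Other genes read otherwise. Those that fell at 4 weeks and rose in CHL2 at 1 year were Oxt, Trh, Ngb, Zic1, Zic2, Cpne7, Gpx3, Baiap3, Magel2 and Peg10, which is 10 of the 26. Oxt, Trh, Magel2 and Peg10 stand in the septal and hypothalamic list, whose called member Prdm12 was not called at 1 year, and Zic4 was not called then either. Oxt stood at 35.0 FPKM in CHL2 and 15.3 in WT at 1 year (change 1.14), and at 3.92 in R6/1 and 1.68 in WT at 8 weeks, where it was not called. Trh stood at 20.8 in CHL2 and 7.60 in WT at 1 year (change 1.34), and at 3.45 in R6/1 and 4.54 in WT at 8 weeks. Zic1 stood at 12.98 in CHL2 and 9.13 in WT at 1 year (change 0.47), and at 4.65 in R6/1 and 4.99 in WT at 8 weeks. Magel2 rose at 8 weeks as well, to 3.53 in R6/1, against 2.18 in WT (change 0.51), while Peg10 fell at 8 weeks, to 7.68 in R6/1, against 11.4 in WT. The 3 WT pools thus held Oxt at 68.8, 1.68 and 15.3 FPKM at 4 weeks, 8 weeks and 1 year, in tables normalized separately. The list of septal and hypothalamic genes had a median of -0.321 at 4 weeks, 0.299 at 8 weeks and 0.427 at 1 year. These medians are over 19, 17 and 20 genes compared, so the members are not all the same.

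**Figure D5:**
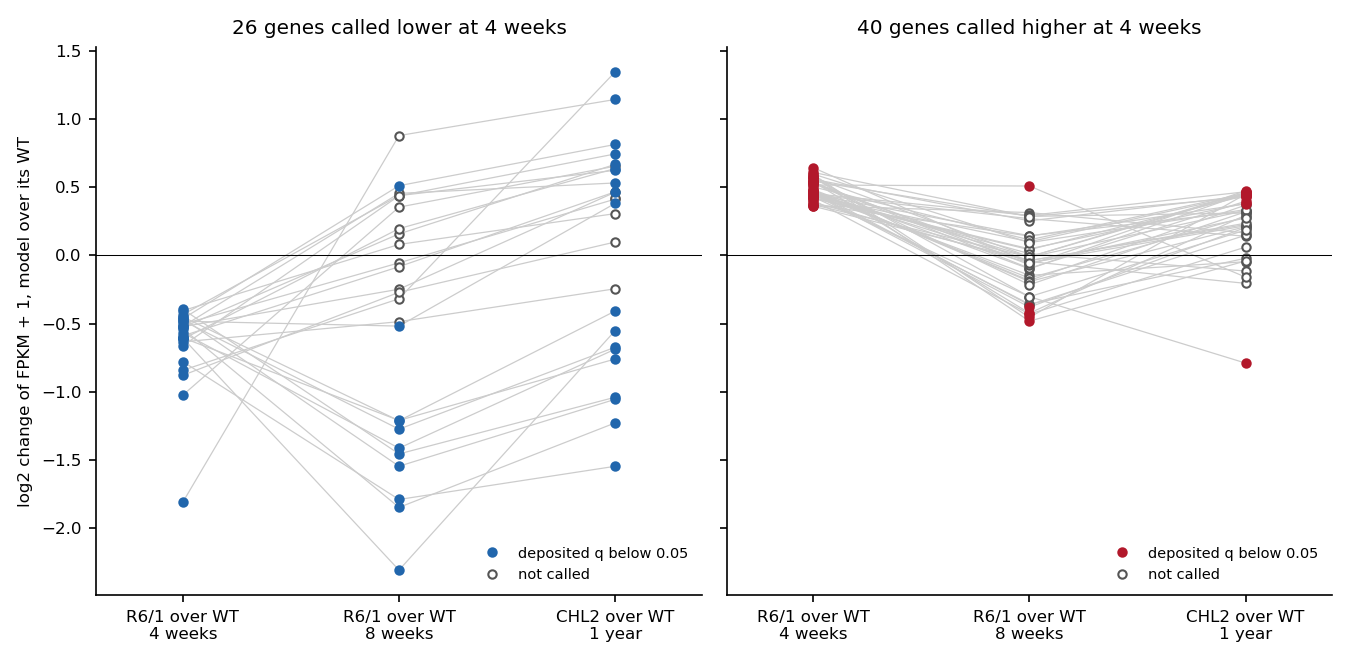
Change of the genes called lower (left) and higher (right) at 4 weeks, in R6/1 over WT at 4 and 8 weeks and in CHL2 over WT at 1 year, 1 line per gene, filled where the authors' deposited q was below 0.05. The left panel holds 9 genes that fell in all 3 tables and 10 that rose at 1 year, the others being uncalled at 1 year, and the right panel is scattered about 0 at 8 weeks.

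Of the 40 genes that rose at 4 weeks, 1 rose and 5 fell at 8 weeks, and their median change there was -0.043. The 5 were Grin2a, Grin2b, Htr2a, Kcnq3 and Cntnap5b. Grin2b stood at 12.4 FPKM in R6/1 and 17.3 in WT at 8 weeks (change -0.45), and Htr2a at 5.24 in R6/1 and 7.71 in WT (change -0.48). Gpr149 was the gene that rose at both ages, to 4.38 in R6/1, against 2.78 in WT at 8 weeks (change 0.51). In CHL2 at 1 year 14 of the 40 rose and 1 fell, with a median of 0.30, or 0.18 after subtracting genes of like length. The gene that fell was Sgk1, at 38.7 in CHL2 and 67.7 in WT (change -0.79). The 14 that rose at 1 year included Grin2b, Pcdh11x, Odz1, Cntnap5a, Ncam2 and Tnr. The 1-year table carries the same direction of length trend as the 4-week table, and the 8-week table the opposite one.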

How the data were processed

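Total RNA of mouse striatum was made into TruSeq libraries and sequenced, per the labels' protocols. TopHat, Bowtie, Cufflinks and Cuffdiff with the mm9 genome are named in the submitters' processing notes, without versions. The sources used here do not give strandedness or gene annotation. Of the 5 tables the authors deposited 3 were used, each with 1 pooled FPKM value per group and gene. Each also holds the authors' log2 fold change, a test statistic (a score of their program), a p-value in steps of 5e-05 and a q-value, which equals the Benjamini-Hochberg adjustment of the deposited p-values over the rows. Depth and read counts per library are unknown, so no interval, SD or own test could be computed, and the planned limma fit was not run. The deposited p-values cover the spread between the authors' libraries alone, which may be technical.

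From the FPKM values, log2(FPKM + 1) changes were computed with Python 3.11.15, pandas 2.3.3, numpy 2.4.6 and scipy 1.17.1 for genes whose FPKM averaged 0.5 or more over both groups. Small RNA rows, left out, held 6.90% of the summed FPKM in R6/1 and 7.25% in WT. Length adjustment subtracts the median of 20 equal groups by transcript length (GENCODE M21, lengths only). It was tested on simulated data whose trend followed length alone. How it performs where the trend also varies with mean FPKM or GC content, as here, was not tested. The genes compared and the 47 gene lists were chosen with earlier results of these data known. Genes were named if called, if among the 4 most abundant or 4 most changed of a list, if in a set of 20 genes chosen for the study's question, or if among the 5 uncalled genes of lowest p in each direction; some genes that met this are not reported here. Promoter windows are RefSeq's (GRCm38.p6). Positions are on mm9 as listed, and the files do not say if starts count from 0 or 1.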

Additional observations from a re-analysis of the deposited data

How the results depend on the processing

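No paired analysis was possible because the tables hold 1 pooled value per group, and for the same reason leaving out single libraries was not run. At a q below 0.01 the authors' deposited table calls 0 genes in all, 0 higher and 0 lower, since its lowest q is 0.0145, with 756 genes at an unadjusted p below 0.05. At a q below 0.1 it calls 87 (51 higher and 36 lower), and adjusting the deposited p-values over the genes compared alone calls 66. Spearman's rho of change with length, 0.48, was 0.53 at an FPKM minimum of 2, and 0.39 with genomic span in its place. Lists with a median of 0.05 or higher numbered 14, and 5 after the length adjustment or 8 after the span adjustment; lists at -0.05 or lower numbered 15, and 13 to 16 under the alternatives. Of 376 list medians under alternatives, 332 moved by less than 0.05 and 44 by more. The sign changed in 20, from 14 lists. Of these 20 medians, 14 belonged to lists whose median was under 0.05 in size: to -0.031 without overlapping rows and -0.025 with span for ELK and serum response factors, to -0.062 with length and -0.010 with span for calcium channels, to -0.070 with length and -0.042 with span for postsynaptic scaffold genes, to -0.021 with length and -0.018 with span for circadian genes, to -0.017 with length for huntingtin and its interacting proteins, to 0.018 at an FPKM minimum of 2 for imprinted genes, to -0.0014 at that minimum and -0.0020 with span for endothelial and mural genes, and with span to 0.0061 for olfactory tubercle and 0.016 for interferon genes. In the lists with larger medians it changed to -0.018 for NMDA and AMPA subunits with span, to -0.0057 with length and -0.013 with span for kainate, delta and metabotropic receptors, to -0.13 for thalamic and pallidal and -0.024 for choroid plexus genes at an FPKM minimum of 2, and to 0.0050 for proteasome genes with length. The causes were not tested.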

Other observations

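Further gene groups, described with the same values, had few or no calls. Of 17 genes of striatal interneurons 10 had the lower value and 7 the higher, with a median change of -0.064, or -0.013 after genes of like transcript length were subtracted. Npy, the neuropeptide Y precursor, stood at 108 FPKM in R6/1 and 129 in WT (change -0.25), Sst, the somatostatin precursor, at 311 in R6/1 and 360 in WT (change -0.21), and Vip, the vasoactive intestinal peptide precursor, at 4.15 in R6/1 and 5.54 in WT (change -0.35). Pvalb, the parvalbumin gene, stood at 30.6 in R6/1 and 26.1 in WT (change 0.22). None of the 17 was called by the authors' test, and an unadjusted p below 0.05 was deposited for 4 with the lower and 1 with the higher value in the authors' deposited table. Calb2, the calretinin gene, stood at 24.7 in R6/1 and 31.3 in WT at 4 weeks (change -0.33), and rose at 8 weeks and in CHL2 at 1 year with changes of 0.77 and 0.71. Drd3, the dopamine D3 receptor gene, stood at 2.24 in R6/1 and 1.38 in WT (change 0.44), the other way from Drd1a and Drd2, and was not called.

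Among choroid plexus and ependymal genes, whose median was 0.109 and -0.024 at an FPKM minimum of 2, some read higher in R6/1, with Ttr, the transthyretin gene, at 660 in R6/1 and 545 in WT and Folr1, a folate receptor gene, at 5.61 in R6/1 and 4.10 in WT, while the cilia genes Ccdc153 and Dynlrb2 read lower, at 4.37 in R6/1 and 6.86 in WT and at 4.28 in R6/1 and 6.12 in WT. None of these 19 genes was called by the authors' test, and 4 had an unadjusted p below 0.05 in the authors' deposited table. Of 30 imprinted genes 16 had the lower value and 14 the higher, with a median of -0.035, which was 0.018 at an FPKM minimum of 2. Of the 30, 2 fell, against 0.183% of all genes compared, and 0 rose. An unadjusted p below 0.05 was deposited by the authors for 6 with the lower and 1 with the higher value. Among those not called, Asb4 stood at 1.02 in R6/1 and 1.66 in WT (change -0.40), and Gnas, which encodes a stimulatory G protein subunit, at 702 in R6/1 and 774 in WT (change -0.14). The uncalled genes of lowest p with the higher value were Hs6st3 and Ndst4, both of heparan sulfate modification, at 10.5 in R6/1 and 7.28 in WT and at 3.51 in R6/1 and 2.29 in WT, each with q = 0.0512 in the authors' deposited table.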
